A study of Mus musculus with 8 samples.

Results

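Complement is the set of serum and cell surface proteins that tags surfaces for removal by phagocytes and can perforate membranes. The 9 complement genes described here are C1ra, C2, C3, C4b, C7, Cfb, Serping1, Cd55 and Cd59a. These genes were chosen by name, with earlier results of these data known. Their rows are those of the deposited isoform table whose gene column holds these symbols. They account for 9 of the 24358 gene symbols and 11 of the 34535 isoforms in the table, and 10 of those 11 isoforms had been tested by the authors.

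The cells were adipocyte precursors, immature mesenchymal cells of the dermis, sorted by flow cytometry from male C57/Bl6 mice aged 7 weeks. Dorsal skin without a wound gave 6 samples and the wound bed on day 5 gave 2, and the labels name no transgene, drug or other treatment in either group. The labels do not say whether a sample came from 1 animal or from several. The deposited table holds 1 FPKM per isoform and group, a level scaled to transcript length and sequencing depth, so the spread between samples and the depth of each sample are unknown and no SD is given.

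Liver cells make most complement protein in plasma, but fibroblasts and other stromal cells also transcribe many of its genes. The classical pathway starts when C1q binds, the protease C1r activates the protease C1s, and C1s cuts C4 and C2. The alternative pathway runs through C3 and factor B. Both pathways cleave C3, and C7 belongs to the terminal complex that inserts into membranes. C1 inhibitor, encoded by Serping1, blocks C1r and C1s, while CD55 speeds the decay of the convertases and CD59 blocks the last assembly step.

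C4b, Cfb and C3 were higher in wound bed precursors than in nonwounded ones, and the other 6 members were not called in either direction. The fold change was largest for C4b and Cfb, at 8.52 and 7.95, followed by C3 at 3.13. The genes of the inhibitors, Serping1, Cd55 and Cd59a, stood at 0.839, 0.888 and 0.917 times their nonwounded levels. A gene was called where the Benjamini-Hochberg adjusted p from the authors' Cuffdiff comparison, taken over all 17775 tested isoforms, was under 0.05. By this rule 3 of 9 members rose and 0 fell, while 7.39% rose and 8.7% fell among the 12961 genes whose major isoform (the tested isoform with the highest summed FPKM) reached an FPKM of at least 1. Because the members were chosen with earlier results of these data known, these counts describe the members and do not test them as a set. Where 2 values are given below without their groups, that of the wound bed comes first. With an adjusted p under 0.01, 2 members were higher, C4b and Cfb, beside 4.82% of genes higher and 5.55% lower. With an adjusted p under 0.1, C2 joined as the fourth, beside 9.7% and 12%. C2 was also called when the adjustment covered only isoforms with an FPKM of at least 5, beside 11.6% and 11%. These shares are of the 8243 genes whose major isoform reached that level, which leaves out Cd59a. At an unadjusted p under 0.05, 4 members were higher and 0 lower, beside 13.6% and 18.4% of genes, and no other test could be run. The members' median log2 fold change was 0.54, and that of all such genes with a value above 0 in both groups was -0.14.

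**Figure D1:**
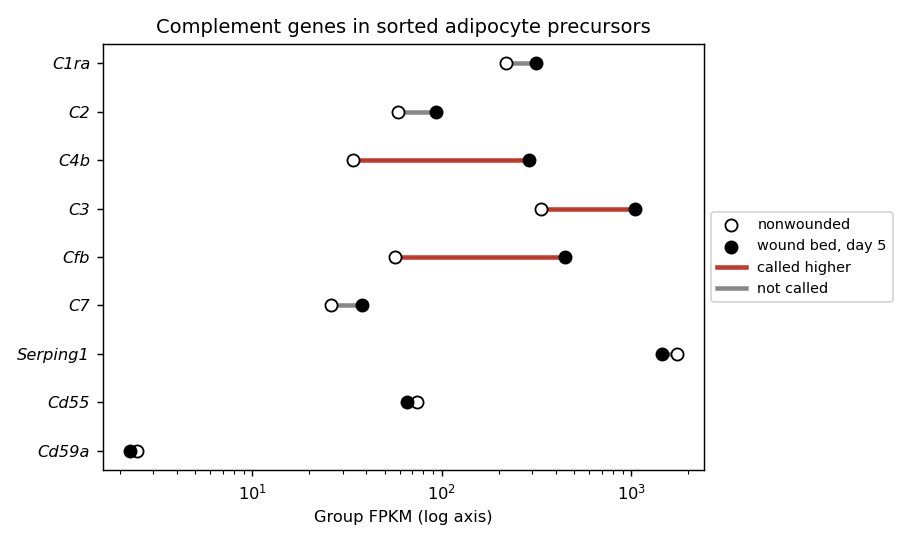
Group FPKM (horizontal log axis) of the major isoform of each complement gene in nonwounded (open) and day 5 wound bed (filled) precursors, 1 point per group, joined by a red line where the gene was called higher and a grey line where it was not called. C4b, Cfb and C3 have the long red lines, and Serping1 has the highest level in both groups.

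The coding sequence of C4b and the transcript of its neighbour C4a are shown where they differ most, because both genes were called and share much of their sequence. Over the 5204 aligned bases they were 96.1% identical in the GENCODE transcripts. Of the 60 bases from position 2705 to 2764 of the C4b coding sequence, counted from the first base of the start codon and written 5′ to 3′, 13 differ and are in capitals.
C4b: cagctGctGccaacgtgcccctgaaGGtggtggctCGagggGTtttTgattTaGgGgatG
C4a: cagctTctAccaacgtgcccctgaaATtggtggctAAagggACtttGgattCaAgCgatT
Of all 50-base windows of the C4b transcript, 35.2% also occur in C4a. Reads from such windows can be assigned to either gene.

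C4b encodes the fourth complement component, the substrate of C1s whose larger fragment anchors the classical pathway convertase. Its deposited group FPKM was 290 in wound bed cells against 34.1 in nonwounded cells, which is a log2 fold change of 3.09 (adjusted p = 0.000882 from the authors' Cuffdiff test). This fold change was above that of 96.9% of the 12458 genes with a value in both groups. C4a, known in mice as the sex-limited protein gene, stood at 26.3 and 2.46, a log2 fold change of 3.42 and was called too. In each group the level of C4b was thus far above that of C4a. Because of the shared windows, how reads were divided between C4b and C4a is uncertain.

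C2 encodes the protease that joins C4 in the classical pathway convertase. It stood at a group FPKM of 92.7 in wound bed cells against 58.5 in nonwounded cells. The log2 fold change of 0.66 was not called (adjusted p = 0.0679 from the authors' Cuffdiff test). The level of C2 was above that of C4b in nonwounded precursors, with C4b at 0.58 times C2. In the wound bed the order was the opposite, with C4b at 3.13 times C2.

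C1ra encodes a C1r protease of the C1 complex. Its group FPKM was 314 in wound bed cells against 219 in nonwounded cells, a log2 fold change of 0.52 that was not called (adjusted p = 0.278 from the authors' Cuffdiff test). C1rb, its close copy on the same chromosome, stood at 87.7 and 48.3 and was called, with a log2 fold change of 0.86 (adjusted p = 0.0119 from the authors' Cuffdiff test). Of the 50-base windows of the C1ra transcript, 48.0% also occur in C1rb, so how reads were split between them is uncertain. C1s1, which encodes the partner protease C1s, stood at 358 and 295 for its major isoform without a call (log2 fold change 0.28). Its second isoform stood at 152 and 41.2 and was called (log2 fold change 1.88, adjusted p = 0.00663 from the authors' Cuffdiff test). The C1q chain genes C1qa, C1qb and C1qc, which macrophages commonly express, had log2 fold changes of 0.48, 0.61 and 0.60, and none of the 3 was called.

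The promoter of C3 is shown because C3 had the highest level of the called members and is the only called member with an entry in the RefSeq promoter table. The window runs from 250 bases before to 50 after the annotated start, at chr17:57228087-57228386 on the minus strand of GRCm38.p6, written 5′ to 3′. Capitals mark a match to the C/EBP motif TTNNGNAAT, whose first base lies at -45, and a TATAAA whose first base lies at position 15 after the annotated start.
C3: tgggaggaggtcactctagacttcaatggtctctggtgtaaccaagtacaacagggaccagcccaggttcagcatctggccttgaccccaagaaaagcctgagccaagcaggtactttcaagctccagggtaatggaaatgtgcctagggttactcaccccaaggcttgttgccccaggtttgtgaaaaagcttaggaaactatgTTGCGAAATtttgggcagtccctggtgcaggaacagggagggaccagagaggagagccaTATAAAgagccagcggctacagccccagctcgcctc
Among 32851 promoter windows of that length, 11.5% hold TTNNGNAAT and 13.6% hold TATAAA on either strand. The other motifs searched on both strands were the STAT motif TTCNNNGAA (8.30% of windows), the interferon-stimulated response element (3.44%) and the NF-kB consensus (4.51%), and the C3 window holds none of these letters. No 2 of the motif matches found in the C3 window overlap.

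The table of promoters had entries for 5 of the 9 members, C1ra, C3, C7, Cd55 and Cd59a. The C1ra window holds TTNNGNAAT on the minus strand at -73 and -30 and TTCNNNGAA on the plus strand at 33. The C7 window holds TTNNGNAAT at -144 and TATAAA at -6, both on the minus strand, and TTCNNNGAA on the plus strand at -164. In Cd59a the interferon-stimulated response element begins at -187, and the Cd55 window holds none of the motifs searched. A match describes letters in the window and not binding.

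C3 encodes the central component that both pathways cleave. Its group FPKM was 1051 in wound bed cells against 335 in nonwounded cells. C3 rose by 1.65 on the log2 scale (adjusted p = 0.0228 from the authors' Cuffdiff test), and the call was lost at an adjusted p under 0.01. Ordered by FPKM among the 12961 genes, C3 was number 228 in nonwounded and number 64 in wound bed precursors. No 50-base window of the C3 transcript occurs in another gene.

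Cfb encodes factor B, the protease of the alternative pathway convertase. Its major isoform stood at a group FPKM of 449 in wound bed cells against 56.4 in nonwounded cells and rose by 2.99 on the log2 scale (adjusted p = 0.000882 from the authors' Cuffdiff test). The second isoform, at 23.8 and 3.91, was also called, with a log2 fold change of 2.60 (adjusted p = 0.00368 from the authors' Cuffdiff test). The major isoform made up 93.5% of the summed Cfb FPKM in nonwounded cells, and the minor one 6.49% there and 5.04% in wound bed cells. The level of C3 was 5.94 times that of Cfb in nonwounded precursors and 2.34 times in the wound bed. Cfd, which encodes the factor D protease that cuts factor B and is also an adipocyte gene, stood at 1.43 and 39.3 without a call (log2 fold change -4.78, adjusted p = 0.187 from the authors' Cuffdiff test). Its second isoform was listed at 0 in the wound bed, against 13.5 without a wound. Cfp, which encodes the stabilising protein properdin, stood at 13.9 and 15.0, also without a call. C3 and Cfb were thus the called genes among these 4 of the alternative pathway. Of all 12961 genes, 7.39% were called higher and 8.7% lower.

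C7 encodes a subunit of the membrane attack complex. Its group FPKM was 37.8 in wound bed cells against 25.9 in nonwounded cells, and the log2 fold change of 0.54 was not called (adjusted p = 0.295 from the authors' Cuffdiff test). Of the 7 terminal pathway genes in the table, only C7, C6 and C8g had a major isoform with an FPKM of at least 1, and 0 of these 3 were called. Among all 12961 genes, 7.39% were called higher and 8.7% lower, so 0 of 3 is near the general share. C6 and C8g were named after their values were seen, and stood at 1.05 and 1.04 in the wound bed against 0.989 and 1.64. The level of C7 was far above those of C6 and C8g in both groups.

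Serping1 had the highest level of the 9 members in both groups, at a group FPKM of 1454 in wound bed cells against 1734 in nonwounded cells. Among the 12961 ranked genes it was number 37 in the wound bed and number 30 in nonwounded cells. The 13 isoforms with too many fragments to be tested were not ranked. The log2 fold change of -0.25 was not called (adjusted p = 0.690 from the authors' Cuffdiff test). The level of Serping1 was 5.17 times that of C3 in nonwounded precursors and 1.38 times in the wound bed. Against C1ra, whose product it inhibits, it was 7.90 times and 4.63 times as high.

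Cd55, the decay-accelerating factor gene, stood at a group FPKM of 65.8 in wound bed cells against 74.1 in nonwounded cells, with a log2 fold change of -0.17 (adjusted p = 0.657 from the authors' Cuffdiff test). Cd55b, its copy, stood at 2.35 and 5.86 and was not called (log2 fold change -1.32, adjusted p = 0.0909 from the authors' Cuffdiff test). Of the 50-base windows of Cd55, 13.3% occur in Cd55b. Cd59a, the main mouse gene of the inhibitor CD59, had the lowest level of the members, at 2.27 and 2.48 (log2 fold change -0.13, adjusted p = 0.907 from the authors' Cuffdiff test). Its second isoform, at 0.128 and 3.22e-05, had not been tested by the authors. Cd59b, at 0.738 and 1.26, was not called. Reads of the near copies Cd55b and Cd59b share windows with Cd55 and Cd59a, which leaves these levels uncertain.

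In nonwounded precursors the order of the members by FPKM was Serping1, C3, C1ra, Cd55, C2, Cfb, C4b, C7 and Cd59a. In the wound bed it was Serping1, C3, Cfb, C1ra, C4b, C2, Cd55, C7 and Cd59a. With 1 value per group, whether neighbours in these orders differ beyond the spread between samples cannot be said. The summed FPKM of the 9 genes was 2544 in nonwounded and 3781 in wound bed precursors.

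C4b, C4a, Cfb and C2 lie together in the class III region of the major histocompatibility complex on chromosome 17. In the coordinates of the table, which match GRCm38, C4b runs from 34728381 to 34743897, Cfb from 34856374 to 34862514 and C2 from 34862602 to 34882100. C3 lies elsewhere on that chromosome, from 57203967 to 57228136. From 60 kb before C4b to 60 kb after C2, 12 genes had an FPKM of at least 1. Besides C4b, C4a and Cfb, 0 of these were called in either direction. Among all 12961 genes, 7.39% were called higher and 8.7% lower, so 0 calls in so few genes is near the general share. The 8 genes of the interval outside complement, selected by position alone, had log2 fold changes from -0.21 for Tnxb, a matrix glycoprotein gene, to 0.56 for Zbtb12, a zinc finger gene. Nelfe, whose gene ends next to Cfb, stood at 10.3 and 10.8. Cfb and C2 are 87 bases apart, and a GENCODE model named Gm20547, whose level was not analysed here, spans both and holds 81.8% of the 50-base windows of Cfb and 58.0% of those of C2. Apart from that model, 0% of the windows of either gene occur in another gene.

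**Figure D2:**
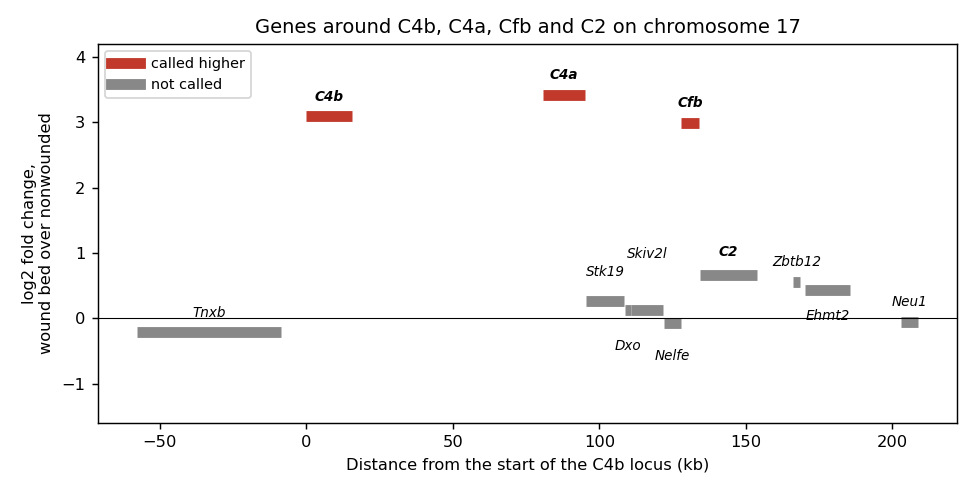
Log2 fold change (wound bed over nonwounded, vertical axis) of the 12 genes around C4b, C4a, Cfb and C2, each drawn from its start to its end as distance from the start of C4b in kb (horizontal axis), red where called higher and grey where not called. C4b, C4a and Cfb lie near 3, C2 at 0.66, and the genes between and beside them between -0.21 and 0.56.

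A wider list of complement genes, written with earlier results of these data known, had 57 genes in the table, of which 37 had a major isoform with an FPKM of at least 1. Of these 37, 11 were called higher and 2 lower, with a median log2 fold change of 0.52. Among all 12961 genes with such an isoform, 7.39% were called higher and 8.7% lower, with a median of -0.14. Without the 9 members, 8 of 28 were higher and 2 lower, with a median of 0.39. In classical and lectin initiation, 4 of 13 were higher and 2 lower. Colec12, a collectin scavenger receptor gene, stood at 63.4 and 25.4 and rose by 1.32 on the log2 scale (adjusted p = 0.000882 from the authors' Cuffdiff test). C1rl, a C1r-like protease gene, fell from 9.61 to 3.99 (adjusted p = 0.00769 from the authors' Cuffdiff test). Fcna, a ficolin gene of macrophages that starts the lectin pathway, fell from 25.9 to 1.86 (adjusted p = 0.00306 from the authors' Cuffdiff test).

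Among the soluble regulators, Clu, a chaperone gene whose product binds terminal complexes, and Vtn, the vitronectin gene, had log2 fold changes of -0.52 and -0.21 without a call. Of 6 membrane regulator genes, 0 were called higher and 0 lower, beside 7.39% and 8.7% of all 12961 genes. All 6 membrane regulator genes had a lower value in the wound bed, with a median log2 fold change of -0.66. Among all 12961 genes, 5410 had a higher value in the wound bed, and the median was -0.14. Cd46, at 0.264 and 1.15, and Cd59b, at 0.738 and 1.26, were at low levels. Cr1l, the rodent gene that blocks C3 deposition on cells, stood at 38.1 and 55.8 (adjusted p = 0.135 from the authors' Cuffdiff test).

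Of 6 receptor genes, 4 were called higher and 0 lower, beside 7.39% and 8.7% of all 12961 genes. The receptor genes had a median log2 fold change of 2.47. C3ar1, the receptor gene of the C3a peptide, rose from 1.34 to 7.65 (adjusted p = 0.00239 from the authors' Cuffdiff test). Itgam and Itgb2, which encode the chains of complement receptor 3 on myeloid cells, rose by 2.33 and 2.41 on the log2 scale (adjusted p = 0.0396 and 0.000882 from the authors' Cuffdiff test). The second Itgam isoform, at 5.05 and 0.507, was not called. Cd93, first described as a C1q receptor gene, rose from 0.365 to 3.55 (adjusted p = 0.0134 from the authors' Cuffdiff test). The calls of Itgam and Cd93 were lost at an adjusted p under 0.01. C5ar1 stood at 7.39 and 2.34 without a call (adjusted p = 0.0564 from the authors' Cuffdiff test).

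**Figure D3:**
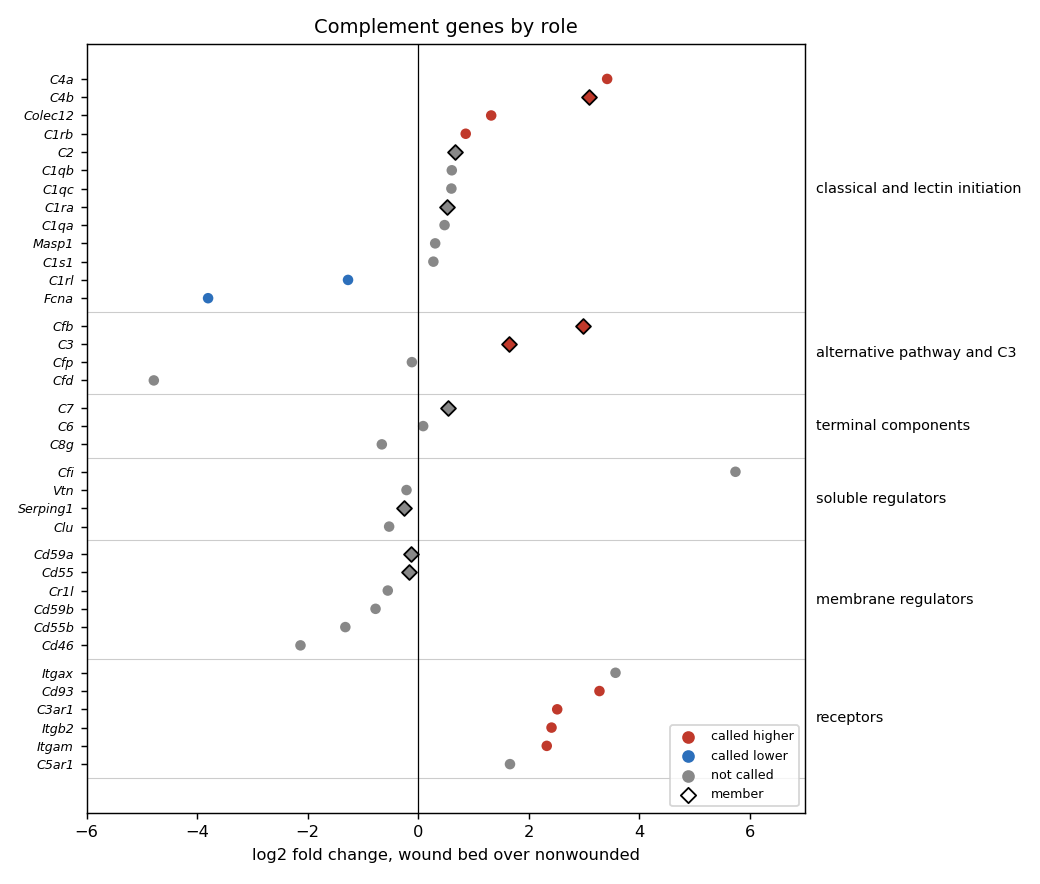
The horizontal axis is the log2 fold change of the wound bed over nonwounded skin: each symbol is the major isoform of 1 of 36 complement genes with an FPKM of at least 1, grouped by role (right), red where called higher, blue where called lower and grey where not called, with diamonds for the 9 members. The called receptors lie between 2.33 and 3.28, and the membrane regulators, none of them called, all lie below 0.

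The labelled cell type and other cells of the dermis were checked through marker lists. Pdgfra and Cd34, used to identify these precursors, stood at 81.2 and 78.8 and at 476 and 739 for their major isoforms. Of 9 precursor and mesenchymal markers 0 were called higher and 1 lower, and their list summed to 6891 against 8791. Among all 12961 genes, 7.39% were called higher and 8.7% lower. Cd24a and Ly6a were named after their values were seen. Cd24a, at 9.38 and 24.9, was the marker called lower. Ly6a was not called for its major isoform, at 1539 and 2149, but its isoforms at 18.4 and 354 and at 9.75 and 176 were called lower. Of 14 macrophage and monocyte markers 11 were called higher and 0 lower, and the summed FPKM of that list was 1066 against 340. Lyz2, a lysozyme gene of these cells, stood at 524 and 174, and Adgre1, a macrophage surface receptor gene, at 18.1 and 4.71, and both were called higher. Csf1r, their growth factor receptor gene, stood at 25.9 and 17.6, and the leukocyte gene Ptprc at 4.13 and 0.453. Neither Csf1r nor Ptprc was called (adjusted p = 0.142 and 0.327 from the authors' Cuffdiff test). These myeloid markers moved in the same direction as C4b, Cfb, C3 and the receptor genes, and their part in those results was not tested. Of the complement genes described above as genes of macrophages or myeloid cells, Itgam and Itgb2 were called higher and Fcna was called lower. C1qa, C1qb and C1qc had log2 fold changes of 0.48, 0.61 and 0.60 and were not called. In these bulk samples a change in the number of cells of a type and a change in RNA per cell cannot be told apart.

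Of 7 mature adipocyte markers, Cfd among them, 0 were higher and 2 lower, with Adipoq, an adipokine gene, at 0.814 and 18.4, and the summed FPKM was 64.7 against 229. Of 5 endothelial markers 0 were called higher and 1 lower, 3 had a higher value in the wound bed, and the median log2 fold change was 0.11. Their list summed to 26.9 against 94.4, of which the isoforms of Tek, an endothelial receptor gene, made up 18.4 and 83.1. Without Tek the sums were 8.50 and 11.2, and Pecam1 stood at 1.52 and 0.729. For hepatocytes, Alb, the albumin gene, stood at 0.132 and 0.223, and the 8 genes of that list summed to 0.891 and 7.37. Ttr, the transthyretin gene, was the only hepatocyte marker that the authors had tested and was called lower, listed at 0 in the wound bed against 6.23 without a wound. For the remaining lists the summed FPKM, wound bed first, was 105 and 2.83 for 7 neutrophil genes, 6.24 and 59.0 for 5 mast cell genes, 33.5 and 19.8 for 7 keratinocyte genes, 165 and 3367 for 6 erythroid genes, 8.19 and 91.0 for 6 skeletal muscle genes and 1.55 and 0.561 for 8 lymphocyte genes. Of the tested genes in these lists with an FPKM of at least 1, 0 of 4 neutrophil and 2 of 6 keratinocyte genes were called higher, and 4 of 4 mast cell, 4 of 5 erythroid and 1 of 5 skeletal muscle genes lower. No tested lymphocyte gene reached that level.

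**Figure D4:**
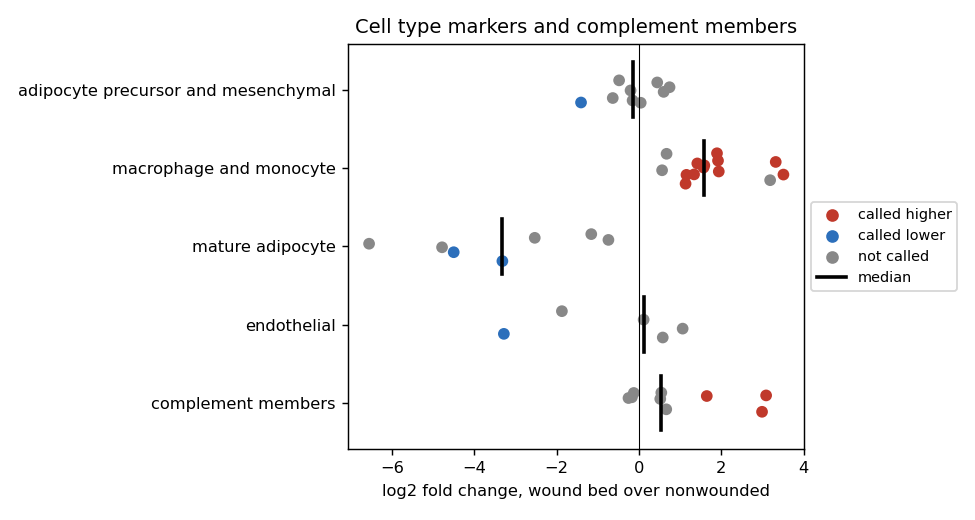
The horizontal axis is the log2 fold change of the wound bed over nonwounded skin: each point is the major isoform of 1 gene with an FPKM of at least 1, in rows for the markers of 4 cell types and for the 9 complement members, red where called higher, blue where called lower and grey where not called, with a black bar at the median. The macrophage and monocyte markers have a median of 1.58 and the complement members 0.54.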

How the data were processed

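Per the labels' protocols, TruSeq mRNA libraries were prepared from 8 sorted samples. The reads were processed with TopHat2 2.0.2 and Cuffdiff 2.0.2 with mm9 named as the build, per the submitters' processing notes. The loci match GRCm38 instead: for 8 of the 9 members the locus began or ended 5 bases or less from the GRCm38 gene, Cd55 being the exception. The authors deposited 1 FPKM per isoform and group and a p-value of the comparison; the number of other per-sample columns was 0. No count test, SD or interval was possible, and depth is unknown. Where p-values rest on samples not known to be separate animals, they describe the variation of these samples, which may be technical.

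The deposited p-values were Benjamini-Hochberg adjusted over 17775 tested isoforms, and the calls differed from the deposited significance column in 0 cases. The adjustment was tested on simulated data. Symbols of 56 isoforms turned into dates were restored by transcript identifier. Fold changes are wound bed over nonwounded FPKM without a pseudocount. The wider list and marker lists, the members and the naming rule (all members, wider-list genes with a call or an FPKM of at least 5, near copies of members, and defining markers) were chosen with earlier results of these data known. Of the marker genes, Ly6g was not analysed here. A gene of the wider list enters its counts but is not reported here or drawn. Promoters came from RefSeq (GRCm38.p6) and transcripts from GENCODE M21. Python 3.11.15, numpy 2.4.6 and pandas 2.3.3 were used.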

Additional observations from a re-analysis of the deposited data

How the results depend on the processing

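The direction of all 9 members was the same in all 45 recomputed fold changes (pseudocounts of 0.1 and 1, centring, isoform sums, isoform with the lowest p). Most of these could not differ in direction. A pseudocount cannot change it, and the isoform with the lowest p was the major isoform of every member. Isoform sums differed from the major isoform only for Cfb and Cd59a. Centring could change a direction, and all 9 members kept theirs, with Cd59a nearest to a change at -0.015. The members' median of 0.54 moved to 0.53 with a pseudocount of 1 and to 0.65 when centred on the median of expressed isoforms, -0.11. The count of members called higher went from 3 to 2 at an adjusted p under 0.01, without C3, and to 4 with C2 at an adjusted p under 0.1 or with adjustment over the 9350 isoforms with an FPKM of at least 5 (adjusted p = 0.0471 for C2 from the authors' Cuffdiff test). It stayed at 3 when a log2 fold change of at least 1 in size was also required. It was also 3 with adjustment over isoforms with an FPKM of at least 1 and with a call of any tested isoform. The shares of all genes called under these 3 alternatives were not computed. The wider list had 11 called higher, beside 7.39% of all genes. It had 7 at an adjusted p under 0.01, beside 4.82%, and 14 at 0.1, beside 9.7%. Leaving out a sample was not possible with 1 value per group. No paired analysis was possible because the deposited columns pool the samples of each group. The depth behind each value is unknown.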
